A study of Drosophila melanogaster with 24 samples.

Results

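In RNA-seq of Drosophila melanogaster heads, 31 genes separated the cwo5073 mutant from its wild-type control in every library, at all 6 times of day. A gene was included when its mean level over the 24 libraries was at least 3 CPM (counts per 1000000 counts of the library) and its lowest value in one line was more than 1.5 times its highest value in the other. The gene cwo itself, w, se, Pu, MtnA, genes with CR names and genes that start on 3R between 9388258 and 11400752, which is 1 Mb to each side of cwo, were left out. Of 16727 genes in the count table, 9010 reached the mean level and 8648 of these were open to the rule. In the mutant 16 members were higher, which is 0.185% of the 8648 genes, and 15 were lower, which is 0.173%. The members were thus chosen by their CPM in these same libraries, so their levels in the lines are given as a description and carry no test.

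The wild type is the w1118 strain, labelled as the control of the mutant. The mutant carries the cwo5073 allele; the sources used here give neither its strain background nor the sex and age of the flies. Flies of both lines were entrained for 3 days in 12 h of light and 12 h of dark at 25 °C and collected on day 4. Heads were collected at zeitgeber time (ZT, hours after lights on) 2, 6, 10, 14, 18 and 22, with 2 libraries for each line and time. The effect of the cwo5073 allele and that of other differences between the 2 lines cannot be told apart in this design.

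The gene cwo (clockwork orange) encodes a basic helix-loop-helix transcriptional repressor of the circadian clock that binds E-box sites in clock-controlled genes. A fly line can also differ from another in genes unrelated to the mutation it carries, through inherited sequence variants, deletions or transposon insertions that change the level of nearby genes at all times of day. Families of detoxification enzymes, kinase-like genes and immune peptides often lie in tandem rows in the fly genome, and their members differ between fly strains in copy and level. A head holds brain, eye, fat body, muscle and cuticle, and in such a bulk sample fewer cells of a type and less RNA per cell cannot be told apart.

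Libraries held 11322400 to 19642411 counts. The cwo transcript lay between 43.9 and 177 CPM in wild type and between 248 and 867 CPM in the mutant, so the lines did not overlap. Head markers were present in each library: ninaE, an opsin of photoreceptors, at 16757 to 46654 CPM, elav, a neuronal marker, at 176 to 347 CPM, and repo, a glial marker, at 13.2 to 64.6 CPM. Wild-type ZT2 replicate 2 and wild-type ZT22 replicate 1 stood apart, with median Spearman correlations with the other libraries of 0.828 and 0.925. In these 2 libraries long transcripts were low against short ones, with a log2 score of -1.13 and -1.07, while the mutant libraries lay between -0.37 and 0.48. The other wild-type libraries lay between -0.50 and 0.15, and 3 of them, at -0.50, -0.45 and -0.40, were also below every mutant library, so this score moved with the line. Wild-type ZT2 replicate 2 was the lowest wild-type library for 11 of the 31 members, 7 of them higher and 4 lower in the mutant, and the part of this in single values was not tested. The longest transcript had a median length of 2018 nt in the higher members, 1353 nt in the lower members and 2170 nt in all genes with a mean of at least 3 CPM. Markers of gut, testis, accessory gland and ovary summed to at most 15.9, 6.26, 0.771 and 1.84 CPM in a library. Of 6 muscle markers 3 fell, and all 6 together summed to 4194 to 5060 CPM in wild type and 3155 to 4175 CPM in the mutant. Without both libraries all 31 genes still met the rule. Leaving out libraries cannot narrow the gap between the lines, so only the mean level could have failed.

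**Figure D1:**
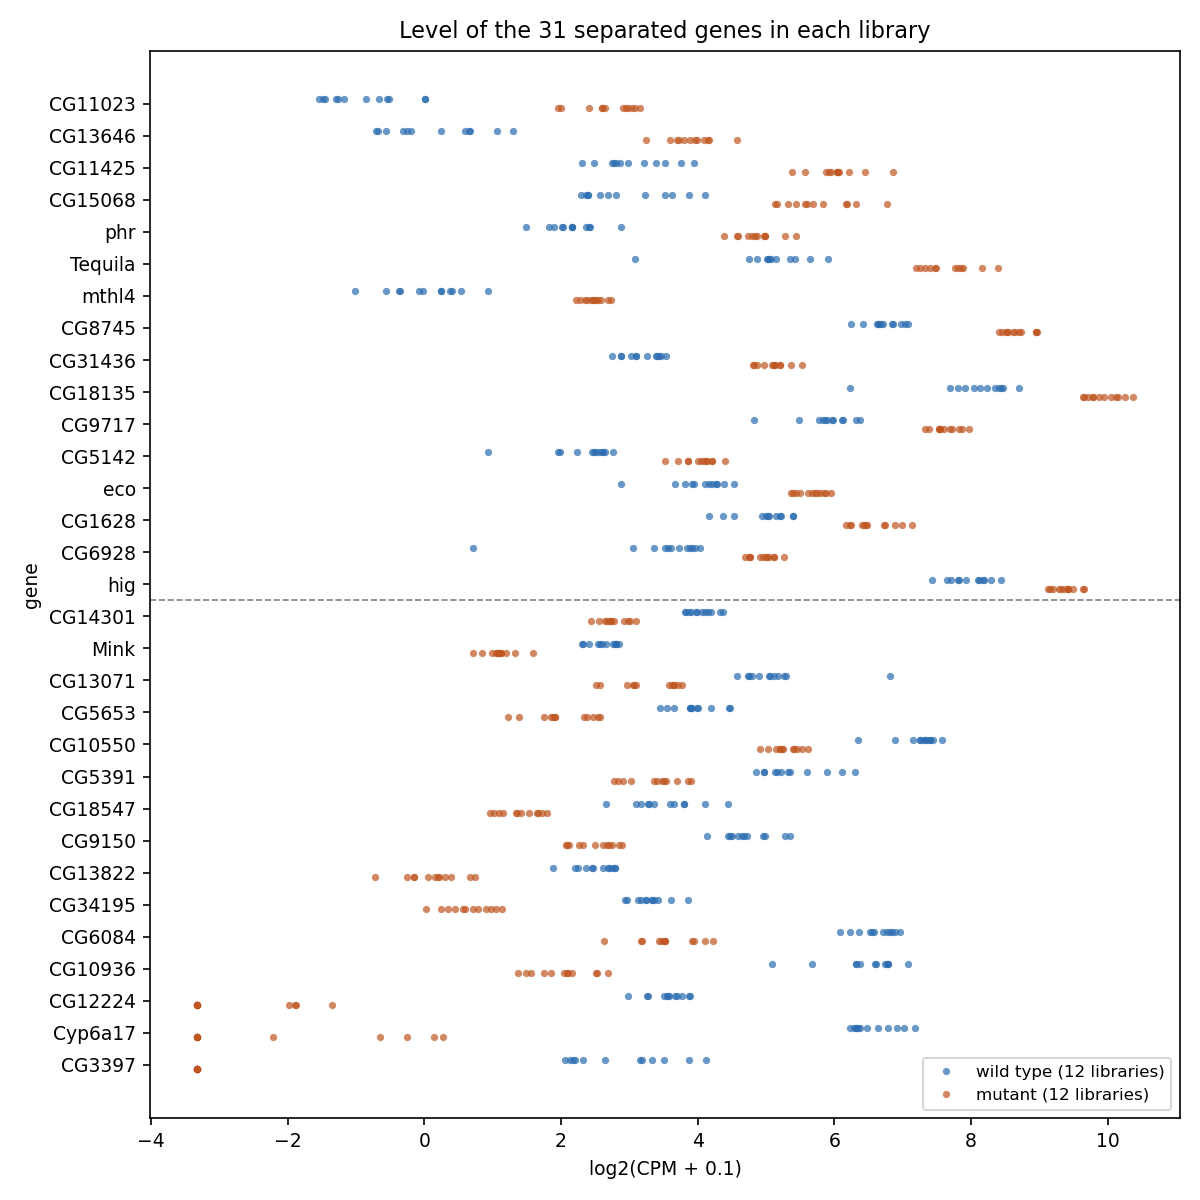
Level of each of the 31 members in each library as log2(CPM + 0.1) on the x axis, with genes on the y axis ordered by the fitted log2 difference and a dashed line between the 15 lower (bottom) and 16 higher (top) members. Blue points are the 12 wild-type and orange points the 12 mutant libraries; for each gene the 2 colours do not overlap, and at the bottom CG3397 has all mutant points at 0 CPM.

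Cyp6a17, CG3397 and CG12224 had the lowest fitted differences of the 31 members, and all 3 were at 0 in most mutant libraries. Cyp6a17, a cytochrome P450 with a known part in the temperature preference of flies, lies on 2R from 14873953 to 14875739. It ranged from 75.2 to 145 CPM in wild type (median 86.0) and from 0 to 1.11 CPM in the mutant (median 0), with 17679 counts in all wild-type libraries against 59 in all mutant ones. Of the mutant libraries, 7 were at 0, and the counts of the other 5 came almost wholly from replicate 2, with a mean of 0.563 CPM against 0.0191 CPM in replicate 1. The annotated transcript of 1546 nt averaged 58.0 ± 14.1 FPKM (SD, n = 12) in wild type but was at 0 FPKM in all mutant libraries, and the few remaining mutant counts were assigned to the 1727 nt form.

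The neighbours of Cyp6a17 in the P450 row differed in direction. Cyp6a23, which is closely similar in sequence and starts just after it, rose by 0.84 ± 0.17 (log2, SE) to 26.3 CPM from 15.6 CPM (edgeR adjusted p = 0.00333). Cyp6a22 on the other side differed by -0.32 ± 0.17 and was not called (adjusted p = 0.159). Cyp6a19, at 1.29 CPM in wild type, fell by 2.12 ± 0.35 (adjusted p = 0.000547) and Cyp6a20 by 0.44 ± 0.13 (adjusted p = 0.0222). The sources used here do not say how reads that match 2 genes were treated, and the division of counts between Cyp6a17 and Cyp6a23 is uncertain. Of 76 cytochrome P450 genes tested, 11 rose and 10 fell (median log2 difference -0.01), beside 14.1% of all 11095 tested genes higher and 13.9% lower at an adjusted p under 0.05.

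CG18547, CG12224 and CG3397 stand side by side on the minus strand of 3R between 11978574 and 11984541, with 313 and 475 bases between them, and all 3 were lower in the mutant. CG3397, of the aldo-keto reductase family, ranged from 4.07 to 17.3 CPM in wild type (median 7.48, 1523 counts in all) and had no count in any of the 12 mutant libraries. Against a floor of 3 counts per library it was at least 48.4-fold lower over all times, and at least 31.3-fold lower at ZT14 and 78.6-fold at ZT18. Such floors cover counting error only, because reads were not tagged by molecule.

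CG12224 ranged from 7.82 to 14.7 CPM in wild type (median 11.8) and from 0 to 0.294 CPM in the mutant (median 0), where 8 libraries were at 0 and all 12 held 14 counts. CG18547 was the least reduced of the 3, at 6.21 to 21.6 CPM in wild type (median 11.1) and 1.85 to 3.38 CPM in the mutant (median 2.52). Mutant counts of CG18547 were thus present in every library, unlike those of its 2 neighbours. Both its neighbours on the far side, Tango9 (log2 difference -0.03 ± 0.08) and GC2 (-0.07 ± 0.21), were not called (adjusted p = 0.805 and 0.837), and on the CG3397 side mfas rose by 0.78 ± 0.11 (edgeR adjusted p = 0.000198). Of the 2 nearest tested genes on each side of the row, none was called lower.

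CG6084, which RefSeq names Akr1B, encodes an aldo-keto reductase and lies apart from that row, on 3L. It ranged from 67.7 to 124 CPM in wild type (median 100.2) and from 6.08 to 18.6 CPM in the mutant (median 11.3). No library of one line came near those of the other. Its 2 expressed transcripts were not reduced alike. The 1316 nt form held 46.5 ± 4.5% of the gene's FPKM in wild-type libraries against 4.70 ± 4.3% in mutant ones (SD, n = 12 each), while the 1135 nt form held 53.5 ± 4.5% and 94.5 ± 3.9%. In FPKM the 1316 nt form went from 35.6 ± 8.2 to 0.461 ± 0.38 and the 1135 nt form from 40.9 ± 8.3 to 9.50 ± 2.9. Of 8 genes tested from a fixed list of aldo-keto reductases, 5 fell and none rose (median log2 difference -0.32). CG6084 and CG3397 are 2 of the 5 and were chosen for this difference. The list does not hold CG18547 or CG12224, so the count covers that list only.

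**Figure D2:**
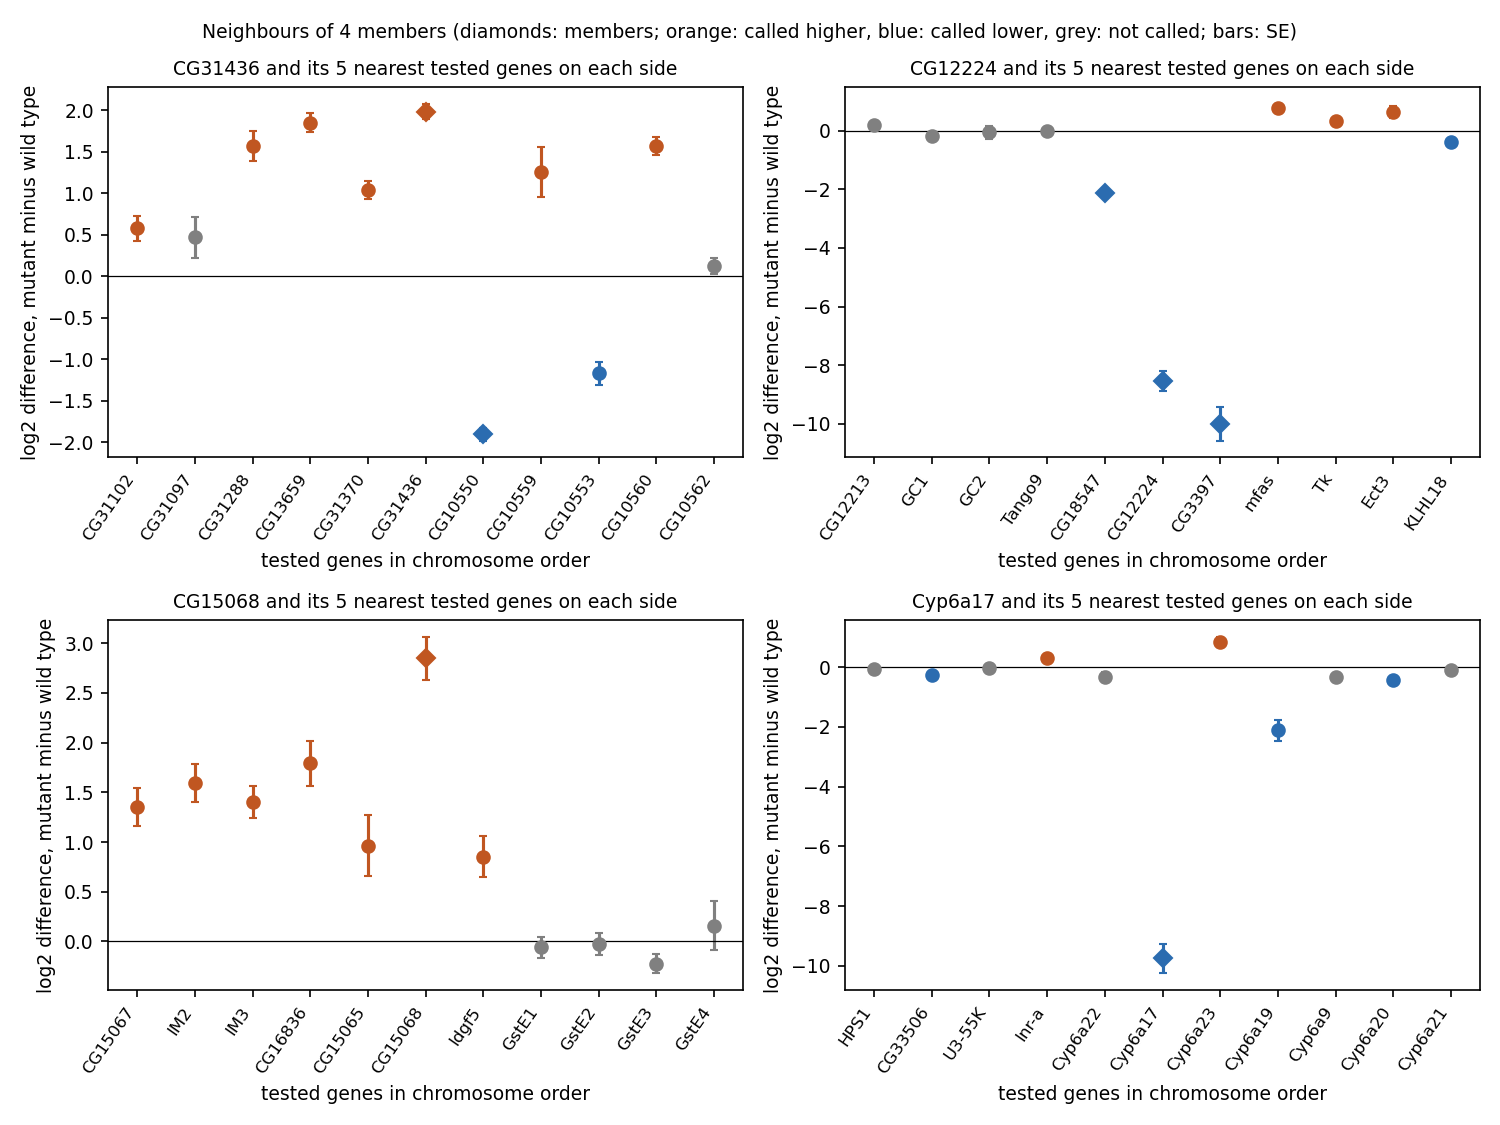
Log2 difference (mutant minus wild type, edgeR, bars are SE) on the y axis for CG31436, CG12224, CG15068 and Cyp6a17 and the 5 nearest tested genes on each side, in chromosome order on the x axis. Diamonds are members, orange is called higher, blue called lower and grey not called at an adjusted p of 0.05; the CG31436 panel mixes directions, the CG15068 panel is higher up to Idgf5, the CG12224 panel has its 3 members far below the other genes, and in the Cyp6a17 panel Cyp6a17 lies far below its neighbours. The plotted value of CG3397, at 0 in all mutant libraries, depends on the prior count of the fit.

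A row of kinase-like genes on 3R held 2 members in opposite directions. CG31436 and CG10550 are 755 bases apart, on opposite strands, and RefSeq gives them the synonyms Dro5-10 and Dro13-1 of a naming scheme for ecdysteroid kinase-like genes, a family of predicted small-molecule kinases to which CHKov1 and CHKov2 belong. CG31436 ranged from 6.62 to 11.5 CPM in wild type (median 8.95) and from 28.0 to 46.0 CPM in the mutant (median 34.6). CG10550 ranged from 81.1 to 190 CPM in wild type (median 159) and from 30.0 to 49.0 CPM in the mutant (median 37.6). On the length-scaled FPKM summed over transcripts, CG10550 stood at 97.1 ± 18.9 and CG31436 at 6.09 ± 1.1 in wild type (SD, n = 12), and in the mutant at 25.2 ± 3.2 and 23.4 ± 3.5, which do not differ by more than their spread.

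The genes around this pair were also unequal between the lines. CG31288 (log2 difference 1.57 ± 0.18, edgeR adjusted p = 1.97e-05), CG13659 (1.85 ± 0.11, adjusted p = 1.98e-08) and CG10560 (1.57 ± 0.11, adjusted p = 6.43e-08) rose, and CG10553 fell by 1.17 ± 0.14 (adjusted p = 2.43e-05). Farther along the row, CHKov1, a gene of the same family, fell by 1.63 ± 0.18 from 123 to 37.5 CPM (edgeR adjusted p = 1.2e-05). Among genes with a synonym of this scheme, a list drawn after these values were known, 44 were tested, of which 16 rose and 7 fell. Within 50 kb of CG31436 there were 24 of them, of which 12 rose and 4 fell (median log2 difference 0.58), both members included. Near-identical copies can exchange reads. How alike the genes of this family are in sequence was not compared here, so the values within it are uncertain.

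The members included 2 genes of immune families. CG15068, which RefSeq names BomS6, encodes a short Bomanin, a family of secreted peptides made by the fat body under Toll signalling. It ranged from 4.79 to 17.0 CPM in wild type (median 6.60) and from 35.0 to 109 CPM in the mutant (median 49.9), and the lines did not overlap. The other genes of its row on 2R rose as well, with log2 differences of 1.59 ± 0.20 for IM2 (edgeR adjusted p = 3.75e-05), 1.41 ± 0.16 for IM3 (adjusted p = 1.95e-05) and 1.79 ± 0.22 for CG16836 (adjusted p = 4.55e-05), all smaller than the 2.85 ± 0.22 of CG15068. Next to CG15068 on the other side, Idgf5 rose by 0.85 ± 0.21 (edgeR adjusted p = 0.00869), and GstE1 to GstE4 beyond it were not called (log2 differences between -0.22 and 0.16).

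Of 24 antimicrobial peptide genes tested, 13 rose and 1 fell (median log2 difference 1.18). Fat body markers moved with the same contrast: 5 of 6 rose, their summed level was 5141 to 34857 CPM in wild type and 10751 to 58769 CPM in the mutant, and 1 of the 6 was under 1 CPM on average. The part of fat body amount in the level of CG15068 was not tested. CG13822, which RefSeq names GILT3 after the thiol reductases of the lysosome, was lower in the mutant. It lay at 3.60 to 6.84 CPM in wild type (median 5.71) and at 0.509 to 1.57 CPM in the mutant (median 1.03), so its direction was opposite to that of CG15068.

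The members hig, Tequila, mthl4 and CG5142 were each higher in the mutant. The gene hig (hikaru genki) encodes a secreted protein of the synaptic cleft at cholinergic synapses. It ranged from 173 to 345 CPM in wild type (median 258) and from 559 to 801 CPM in the mutant (median 671), with no overlap. All 4 annotated hig transcripts were higher in the mutant by mean FPKM, and the share that moved most was that of the 4332 nt form, 27.5 ± 4.9% in wild type against 21.1 ± 4.0% for mutant libraries (SD, n = 12). Cyp4p1, Cyp4p2 and Cyp4p3 overlap hig on the opposite strand, at 88.1, 0.153 and 8.58 CPM in wild type and 71.3, 0.222 and 5.66 CPM in the mutant in mean level. Neuron markers as a list were called higher for 2 of 6 genes, with a summed level of 3209 to 5657 CPM in wild type and 3833 to 4973 CPM in the mutant, and photoreceptor markers for 7 of 10, with 52736 to 88487 CPM and 85865 to 105032 CPM. The part of cell makeup in the level of hig was not tested.

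Tequila encodes a neurotrypsin-like serine protease with a known part in long-term memory. It ranged from 8.39 to 60.0 CPM in wild type (median 33.2) and from 146 to 335 CPM in the mutant (median 198). The gap lay between the highest wild-type library at ZT18 and the lowest mutant library at the same time. Its transcripts changed places: the 2263 nt form held 69.1 ± 24% of the gene's FPKM in wild-type libraries and 0.301 ± 0.39% in the mutant, while the 4602 nt form held 15.9 ± 16% and 96.8 ± 1.0%. By mean FPKM the short form went from 8.20 ± 4.3 to 0.124 ± 0.15 and the 4602 nt form from 1.81 ± 1.9 to 41.0 ± 11.4, so the short form ran against the direction of the gene.

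The gene mthl4 encodes a receptor of the Methuselah-like family of G protein-coupled receptors. It was rare in wild type, at 0.395 to 1.81 CPM (median 0.983), and lay at 4.57 to 6.57 CPM in the mutant (median 5.44). Its neighbour mthl3, of the same family, was not a member and rose by 2.80 ± 0.33 from 0.647 to 4.03 CPM (edgeR adjusted p = 2.34e-05). The gene on the other side, CG18467, fell by 1.12 ± 0.09 (edgeR adjusted p = 2.09e-07). CG5142, named Ttc30 in RefSeq after a subunit of the intraflagellar transport particle of cilia, ranged from 1.80 to 6.68 CPM in wild type (median 5.56) and from 11.4 to 21.1 CPM in the mutant (median 16.7). Without the 2 libraries that stood apart its lowest wild-type value was 3.80 CPM.

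Both phr and eco, which act on DNA or chromatids, were higher in the mutant. The gene phr encodes the photolyase that repairs ultraviolet damage in DNA with the energy of light. It ranged from 2.71 to 7.28 CPM in wild type (median 4.37) and from 20.7 to 43.3 CPM in the mutant (median 28.8). The 1915 nt transcript held 6.82 ± 19% of its FPKM in wild-type libraries and 66.3 ± 13% in the mutant, and its FPKM did not overlap between the lines, whereas that of the 1737 nt form did. The gene eco encodes an acetyltransferase that establishes cohesion between sister chromatids. It lay at 7.28 to 23.0 CPM in wild type (median 17.5) and at 41.0 to 61.6 CPM in the mutant (median 51.8), and its lowest wild-type value without the 2 libraries that stood apart was 12.7 CPM.

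**Figure D3:**
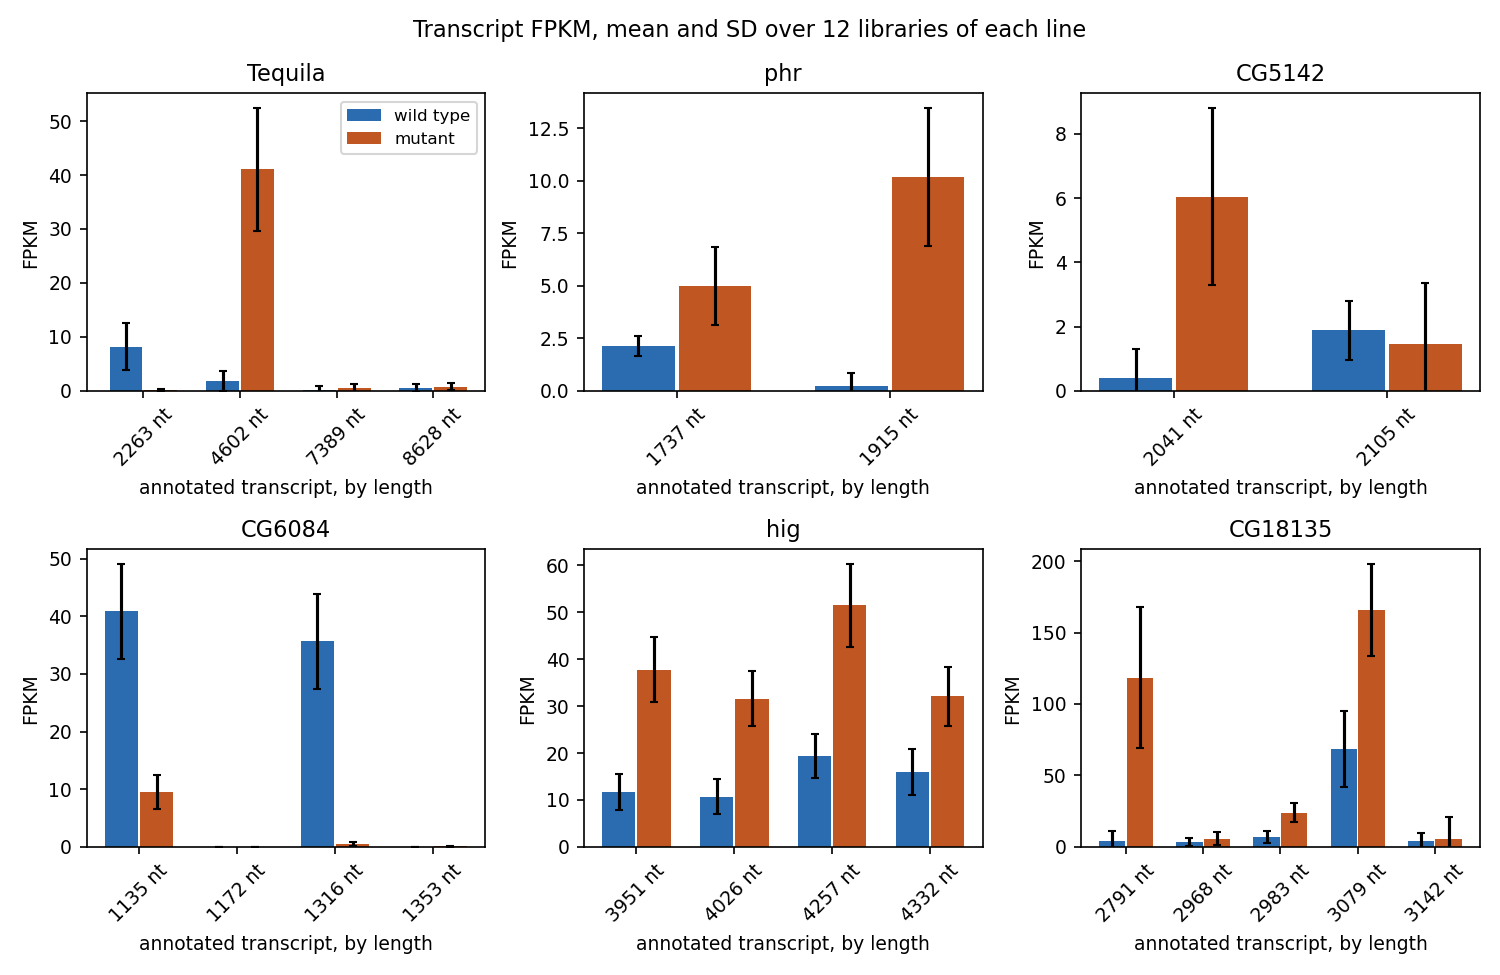
FPKM (y axis) of each annotated transcript, named by its length in nt (x axis), for 6 members with 2 or more transcripts, as the mean and SD over 12 wild-type (blue) and 12 mutant (orange) libraries. In Tequila and phr the mutant's leading transcript is not the one that leads in wild type, in CG6084 the 1316 nt form is nearly gone in the mutant, and in hig all 4 forms are higher.

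Across all 31 members the deposited tables gave 57 transcripts, of which 45 had a mean FPKM of at least 1. In 32 of the 45 the lines were apart in the direction of the gene, in none in the other direction, and in 13 they overlapped. For the 18 members with 1 annotated transcript the transcript stands for the gene, so the rule fixed this outcome. All 13 that overlapped were transcripts of members with more than 1. The share over all transcripts was not computed. The division of reads among overlapping transcript models was made by the submitters' software, and the shares rest on it. CG18135, a predicted glycerophosphodiester phosphodiesterase gene, showed a further shift: its 2791 nt form held 3.93 ± 5.2% of the gene's FPKM in wild-type libraries and 36.4 ± 13% in the mutant, and its 3079 nt form 73.8 ± 24% and 52.4 ± 8.8%. In CG5142 the 2105 nt form held 85.9 ± 33% in wild type and 21.8 ± 31% in the mutant, and in both transcripts the libraries of the 2 lines overlapped.

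Enzyme and transporter genes made up most of the remaining higher members. CG18135 lay at 75.1 to 415 CPM in wild type (median 290) and at 795 to 1321 CPM in the mutant (median 959). CG8745, a predicted aminotransferase gene, lay at 75.9 to 135 CPM in wild type (median 103) and 339 to 498 CPM in the mutant (median 396). These abundant genes stood apart between the lines with room to spare, by a factor of 1.92 for CG18135 and 2.50 for CG8745 between the nearest libraries.

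CG9717 and CG6928 belong to the SLC26 family of anion transporters. CG9717 ranged from 28.3 to 82.5 CPM in wild type (median 60.8) and from 160 to 250 CPM in the mutant (median 190). CG6928 ranged from 1.54 to 16.3 CPM in wild type (median 12.6) and from 25.7 to 38.1 CPM in the mutant (median 31.3). For both genes the lowest wild-type library was ZT2 replicate 2, and without the 2 libraries that stood apart the wild-type minimum of CG6928 was 10.2 CPM. CG1628, a mitochondrial carrier family gene and the only member on the X chromosome, lay at 17.8 to 42.0 CPM in wild type (median 32.7) and 71.7 to 140 CPM in the mutant (median 88.6).

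CG11425, which carries the RefSeq synonym LPP-like after lipid phosphate phosphatases, lies on 3L and ranged from 4.85 to 15.2 CPM in wild type (median 7.46) and from 41.6 to 116 CPM in the mutant (median 65.6). Its fitted log2 difference was 3.04 ± 0.18. Genes of the same kind beside it moved little: CG11426 rose by 0.41 ± 0.09 (edgeR adjusted p = 0.00348), CG11438 by 0.50 ± 0.09 (adjusted p = 0.00137), and laza was not called (-0.03 ± 0.06, adjusted p = 0.734).

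The largest fitted ratios among the higher members belonged to genes that were rare in wild type. CG11023, which the RefSeq table lists as a pseudogene (CR11023), lay at 0.242 to 0.903 CPM in wild type (median 0.397) and 3.78 to 8.81 CPM in the mutant (median 6.75), a fitted log2 difference of 3.92 ± 0.23. It had 87 counts in all wild-type libraries and 1394 in all mutant ones. CG13646, named mah in RefSeq, lay at 0.516 to 2.35 CPM in wild type (median 0.927) and 9.36 to 23.7 CPM in the mutant (median 15.1), a fitted log2 difference of 3.89 ± 0.14. Mink, 22471 bases away on the same strand, was a lower member at 4.85 to 7.12 CPM in wild type (median 6.08) and 1.54 to 2.90 CPM in the mutant (median 2.03). The 4 genes between Mink and CG13646 differed by log2 values from -0.17 to 0.31, all smaller in size than the -1.51 ± 0.10 of Mink. Of these, CG11771 was called higher (0.23 ± 0.08, edgeR adjusted p = 0.0434), and Osbp, ssh and Nmnat were not called.

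Of the lower members, CG10936 followed the 3 that were at or near 0. It ranged from 33.9 to 135 CPM in wild type (median 97.0) and from 2.49 to 6.33 CPM in the mutant (median 4.08), with a fitted log2 difference of -4.39 ± 0.15. Its lowest wild-type library was ZT2 replicate 2, and the lowest without the 2 libraries that stood apart was 79.4 CPM. CG34195, with the RefSeq synonym METTL6 of a methyltransferase, lies 94099 bases from CG10936 on 2R; it ranged from 7.59 to 14.4 CPM in wild type (median 9.65) and from 0.916 to 2.10 CPM in the mutant (median 1.48). Between these genes, on the CG10936 side, CG30108 fell by 1.22 ± 0.13 (edgeR adjusted p = 1.27e-05) and CG30109 by 0.81 ± 0.14 (adjusted p = 0.00104). On that side eIF3-S8 (0.09 ± 0.08, adjusted p = 0.376) and CCHa1-R (0.15 ± 0.17, adjusted p = 0.516) were not called. On the CG34195 side CG4975 was called higher (0.22 ± 0.07, edgeR adjusted p = 0.0289), and CG4984, Snx16, CG10933 and CG6424 were not called. Of the 10 tested genes nearest CG34195, 2 were called higher and 0 lower.

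The 5 other lower members had no member of their own direction within 50 kb. CG9150 lay at 17.5 to 40.6 CPM in wild type (median 25.3) and at 4.12 to 7.29 CPM in the mutant (median 5.77). CG5391 ranged from 28.8 to 78.6 CPM in wild type (median 38.4) and from 6.78 to 14.8 CPM in the mutant (median 10.8). CG13071 was between 23.7 and 112 CPM in wild type (median 32.9) and between 5.59 and 13.5 CPM in the mutant (median 10.2); its highest wild-type value came from ZT2 replicate 2, and without the 2 libraries that stood apart the wild-type maximum was 39.0 CPM. For CG5653 the ranges were 10.8 to 22.1 CPM (median 14.9) and 2.24 to 5.84 CPM (median 3.66). CG14301, with the smallest fitted difference of the lower members (-1.26 ± 0.11), lay at 14.0 to 20.5 CPM in wild type (median 16.2) and at 5.31 to 8.44 CPM in the mutant (median 6.52). It lies within qin on the opposite strand, and qin had 5.92 CPM in wild type and 7.72 CPM in the mutant, opposite in direction to CG14301.

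Over the members the fitted log2 differences ran from 1.46 to 3.92 for the higher group (median 1.98) and from -9.99 to -1.26 for the lower group (median -2.22), where the values of the genes at or near 0 in the mutant depend on the prior count. Just inside the limit of the rule were CG6928 and hig, with 1.58 and 1.62 between the nearest libraries of the lines, and CG10550 and CG14301 with 1.65 and 1.66. Just outside were CG10560 and Cyp6a2 with 1.47 each on the higher side, and on the lower side CG13022, which missed 1.5 by less than rounding shows, and Arc1 with 1.44. On the length-scaled FPKM summed over transcripts, wild-type levels of the members ran from 0.223 ± 0.12 for CG11023 to 97.1 ± 18.9 for CG10550, and mutant levels from 0 for CG3397 to 319 ± 57.3 for CG18135. In wild type, CG10550 and CG18135 (86.8 ± 28.4 FPKM) did not differ by more than their spread, and in the mutant neither did CG18135 and CG15068 (276 ± 104 FPKM).

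The spread between libraries was unequal in the lines. The coefficient of variation of each of the 16 higher members was larger in wild type than in the mutant, with medians of 29.1% and 16.7%. Of the 15 lower members 6 were more variable in wild type, with medians of 22.7% and 27.6%. The rule itself limits the spread in both lines, and both libraries that stood apart are wild type, so these values are a description. In both groups the larger median spread was in the line with the lower level. Median levels in wild type and mutant were 10.6 and 54.2 CPM for higher members, and 16.6 and 4.09 CPM for lower ones. The part of counting error in the spread was not tested. In the mutant, replicate 1 was below replicate 2 for 12 of the 14 lower members with counts, with a median ratio of 0.772, while in wild type the median ratio over the 15 lower members was 1.03. For the 16 higher members the median ratio was 1.09 in both lines. Scores of long against short transcripts also split the mutant libraries, at 0.23 to 0.48 in replicate 1 and -0.37 to 0.18 in replicate 2. The part of transcript length in these ratios was not tested, and the share over all genes was not computed.

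Position was used by the rule only around cwo. By name or position 9 further separated genes were left out, and those left out by position on 3R were CG8319, CG12947, CG8147, CG4757 and Skeletor. The 3-gene row of CG3397 starts at 11978574 on 3R, past the end of the left-out stretch at 11400752. The members lay on 3R (11, or 35.5% of members against 23.1% of the 8648 genes), 3L (9, or 29.0% against 19.5%), 2R (7, or 22.6% against 21.1%), 2L (3, or 9.68% against 18.2%) and X (1, or 3.23% against 17.1%). Of the 31 members 7 lay within 50 kb of another member, or 22.6%, while 3.92% of the 8617 other genes lay that close to one. These 7 are the 3-gene row of CG3397, the pair CG31436 and CG10550, and the pair Mink and CG13646, and tandem genes are not independent of each other. Of the 2 nearest tested genes on each side of higher members, other members left out, 17 of 61 were called higher (27.9%, beside 14.1% of all genes) and 9 called lower. Next to lower members 6 of 51 were called lower (11.8%, beside 13.9% of all genes) and 12 were called higher (23.5%), so the share of neighbours in the same direction was near the background for the lower group. CG31370 and CG10559, both called higher, lie beside both CG31436 and CG10550 and count in both groups. Several of the 17 lie in tandem rows, as CG16836 and CG15065 beside CG15068 do, and are not independent of each other. The background itself rests on single libraries: of all genes 1566 were called higher and 1538 lower, but 2971 and 2621 without wild-type ZT2 replicate 1, 1027 higher without mutant ZT18 replicate 1, and 929 to 1022 lower without wild-type ZT22 replicate 1 or any 1 of the mutant replicate 1 libraries from ZT6 to ZT22.

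**Figure D4:**
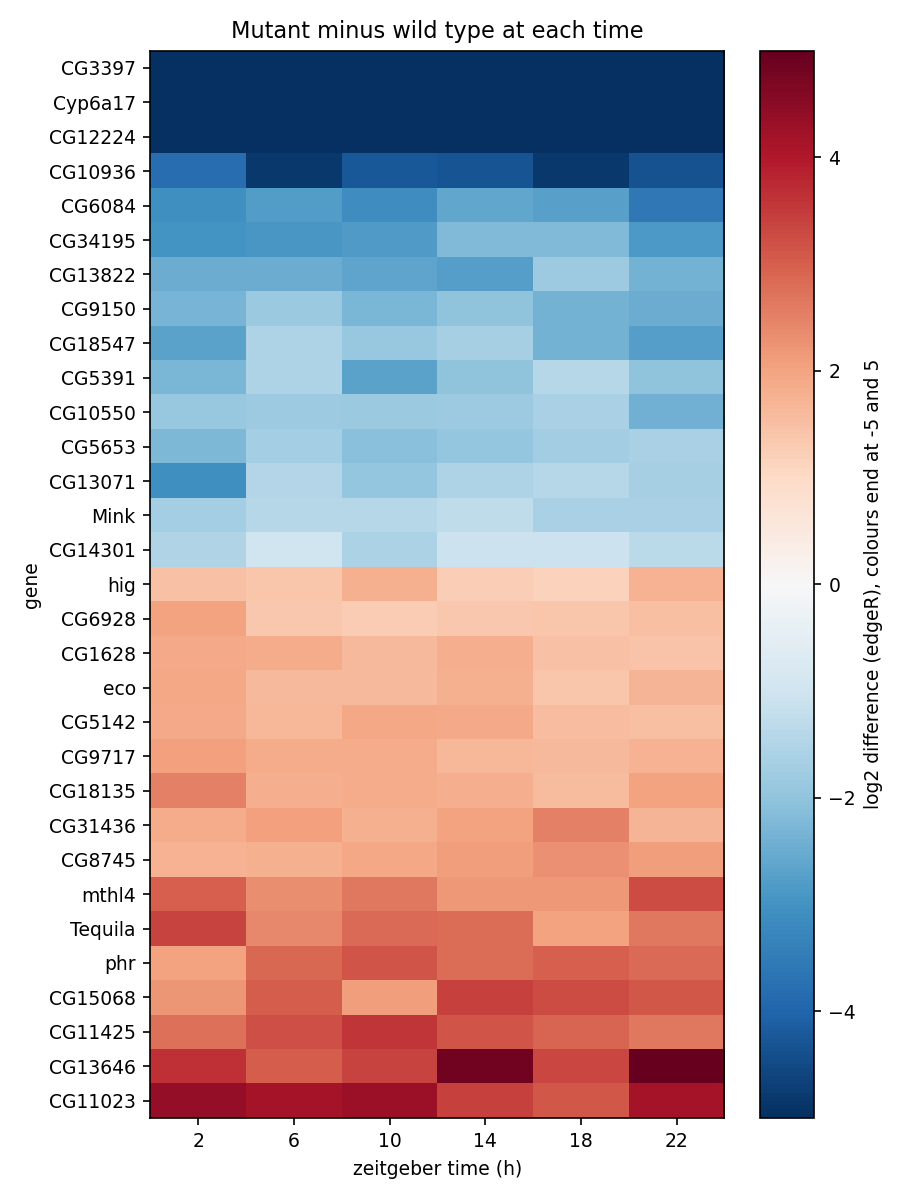
Fitted log2 difference (mutant minus wild type, colour) of each member (y axis) at each of the 6 zeitgeber times in hours (x axis), with colours ending at -5 and 5. Each row keeps 1 direction at all 6 times, as the rule requires; CG3397, Cyp6a17 and CG12224 are beyond the end of the scale throughout.

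The daily course is the measure that the rule did not use, apart from the limit it sets on the spread within a line. By edgeR's quasi-likelihood test of a 24 h cosine over all 11095 genes, none of the 31 members was called in wild type at an adjusted p under 0.05, while 623 of all genes were, or 5.62%. Without wild-type ZT2 replicate 1 or ZT6 replicate 1 the 623 became 1097 or 952, without wild-type ZT14 replicate 1 or ZT22 replicate 1 it became 393 or 383, and the members called ranged from 0 to 2 as each library was left out. At an unadjusted p under 0.05 there were 7 members, beside 28.7% of all genes, and DESeq2 called 3, CG11425, CG18135 and CG6928, beside 1647 of all genes (14.8%). In the mutant none was called either, beside 121 of all genes (1.09%), or 212 without wild-type ZT2 replicate 2; leaving out mutant ZT22 replicate 1 or ZT2 replicate 2 gave 1 member, CG12224. Unadjusted, 3 members passed, beside 6.81% of all genes, and DESeq2 called CG12224 alone, beside 255 of all genes (2.39% of those given an adjusted p). The difference of the 2 courses was called for no member and for no gene of all tested (0%), with 2 members at an unadjusted p under 0.05 beside 4.96% of all genes, and DESeq2 called no member and 9 of all genes (0.0811%). Replicates are not labelled as separate cultures, so these p-values measure only the spread between these libraries, which may be technical.

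CG11425 had the lowest p in wild type, with an amplitude of 0.61 log2 CPM and a peak near ZT 23.0 (edgeR adjusted p = 0.0648). Its mean was 12.2 CPM at ZT2 and 5.16 CPM at ZT10. CG18135 followed, with an amplitude of 0.51 and a peak near ZT 14.7 (edgeR adjusted p = 0.0891). Next were CG9717 and mthl4, with amplitudes of 0.28 and 0.44 (edgeR adjusted p = 0.112 and 0.126). After them, CG6928 had an amplitude of 0.65 and a peak near ZT 13.1 (edgeR adjusted p = 0.127). For CG18135, CG9717 and CG6928 the lowest wild-type value was ZT2 replicate 2, the library that stood apart. CG12224 had the lowest p in the mutant (edgeR adjusted p = 0.149), where the test rests on 14 counts, so no course could be read at this depth.

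**Figure D5:**
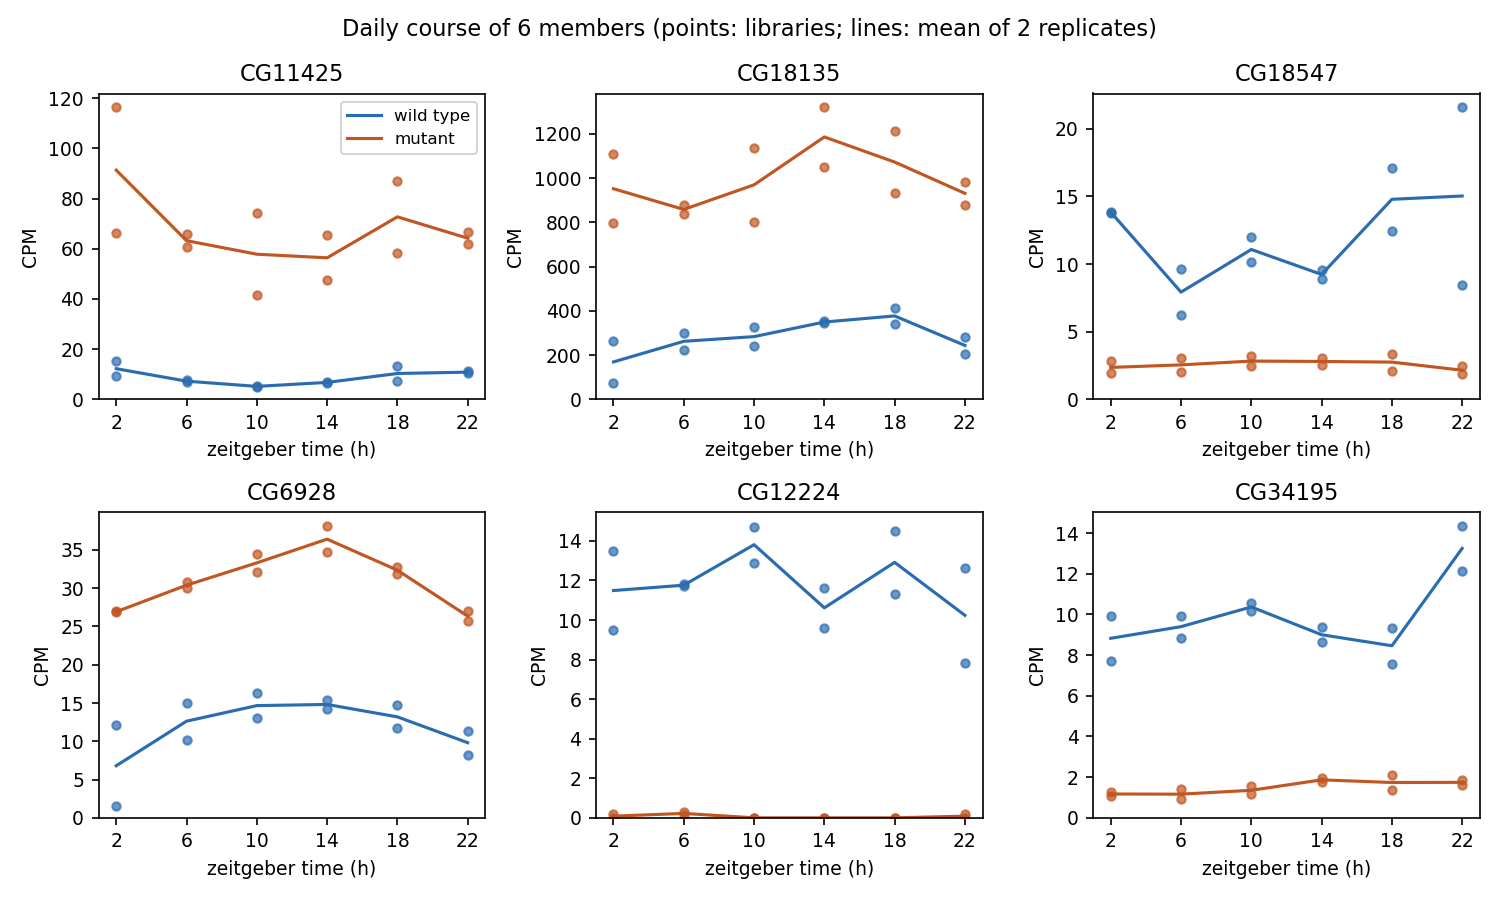
CPM (y axis) against zeitgeber time in hours (x axis) for 5 members that were called in a course test under some setting and for CG34195, whose mutant course and difference of courses had an unadjusted p under 0.05, with points for libraries and lines through the mean of 2 replicates, wild type in blue and mutant in orange. In each panel the 2 lines stay apart at all 6 times, and the wild-type ZT2 point of 1.54 CPM in CG6928 is the library that stood apart.

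The median amplitude in wild type was 0.27 log2 CPM over the members and 0.25 over all genes tested, and in the mutant it was 0.17 and 0.12. Over the tested genes with a mean of at least 3 CPM, as the members have, it was 0.23 in wild type and 0.10 in the mutant. The difference between the lines had 1 direction at all 6 times for each member, which the rule fixes. For 27 of the members the fitted difference spanned at most 1.37 log2 units over the 6 times. The others were CG13071, with -3.08 at ZT2 and -1.44 at ZT18, CG13646, with 3.02 at ZT6 and 5.09 at ZT22, and Cyp6a17 and CG12224, whose mutant counts were at or near 0. Among the 27, CG3397 was at 0 in all mutant libraries, so its span depends on the wild-type level and the prior count. The ZT2 value of CG13071 rests on the wild-type library of 112 CPM that stood apart.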

How the data were processed

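The members and the gene lists were chosen with earlier results of these data known. The tools STAR 2.6.1d, StringTie and DESeq2 and the dm6 build are given, without roles, per the submitters' processing notes. Per the labels, poly(A) RNA went through a directional library kit with 12 PCR cycles, and single reads of 75 bp were sequenced. Values in the authors' gene table are expected counts of 16727 genes, without normalization; for 99.2% of the values compared, the deposited count equalled transcript coverage times length divided by 75, rounded up and summed over the gene, so counts are estimates from coverage, a signal per base in the deposited transcript tables. Strand use in counting is not stated there. The authors also deposited FPKM per transcript and per gene; the gene FPKM table holds 8489 genes, 30 of the members among them, and served only as an alternative to the counts in the rule, and levels between genes were compared by transcript FPKM summed per gene. Counts were whole numbers and were used as deposited; 5 names turned into dates, with 0.0224% of the counts, entered library totals but no test.

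CPM was the count divided by the column sum. Counts of genes kept by filterByExpr (11095) were scaled by TMM and fitted with edgeR 4.0.16 (glmQLFit, glmQLFTest, R 4.3.3) on 12 groups of line and time; the genotype contrast averaged the 6 mutant groups and subtracted the average of the 6 wild-type ones, and SE come from the fit. Daily courses were fitted per line as a 24 h cosine with a matching sine term, with amplitude and peak from least squares on log2 CPM. P-values were adjusted by Benjamini-Hochberg with a threshold of 0.05. The fits were tested on simulated data. DESeq2 1.42.0 served as an alternative. Tables were made with Python 3.11.15, numpy 2.4.6 and pandas 2.3.3, and figures with matplotlib 3.10.9. Gene positions are those of the dm6 annotation; 30 of 31 members matched RefSeq names. Named genes are the 10 highest and 10 lowest fitted differences, members at 0 in at least 6 libraries of a line, in a fixed list or within 50 kb of another member, and those nearest the limit; other members and neighbours were named after their values were seen. The titles give 6 collection times and were followed, although the treatment text names only 2.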

Additional observations from a re-analysis of the deposited data

How the results depend on the processing

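The direction and call of the fitted difference held for each of the 31 members under all 30 alternatives run (930 values: DESeq2 size factors in edgeR, DESeq2, 2 filters, a replicate block, and leaving out libraries). The members were chosen by this difference in the same libraries, so the outcome was largely fixed by the rule and is no support. The number of members depends on the rule. With a factor of 1 there were 48 higher and 62 lower genes, with a factor of 2 there were 9 and 8, and with a mean of at least 10 CPM 8 lower genes remained of the 15. TMM scaling gave 19 higher and 17 lower genes, all 31 members among them; DESeq2 size factors gave 19 and 16 and lost Mink. The gene FPKM table gave 17 and 14; Mink has no row in it, so the rule was not applied to that gene there. Leaving out each library in turn gave 16 to 18 higher and 15 to 18 lower genes. Such a step can add genes, but it can lose a member only through the mean level.

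For the wild-type course DESeq2 called 3 members and 1647 of all genes, and 5 free time terms 247 of all genes; for the mutant course DESeq2 called 1 member and 255 of all genes, 5 free time terms 70, and the fit without both wild-type libraries that stood apart 250. For the difference of courses DESeq2 called 9 of all genes and no member. Without each library in turn, members called ranged from 0 to 2 in the wild-type course (CG11425 and CG18547 without wild-type ZT22 replicate 2, CG11425 without wild-type or mutant ZT2 replicate 1), from 0 to 1 in the mutant course (CG12224 without mutant ZT22 replicate 1 or ZT2 replicate 2) and from 0 to 0 for the difference. Over all genes these ranges were 383 to 1097, 86 to 212 and 0 to 1; for the genotype difference they were 1027 (without mutant ZT18 replicate 1) to 2971 genes higher and 929 (without mutant ZT14 replicate 1) to 2621 lower, both highest without wild-type ZT2 replicate 1. The cause of these shifts was not tested.

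Deviations of same-numbered mutant libraries correlated over 0.1 in 15 of 15 pairs of times (median 0.374), but in 3 of 15 in wild type and 3 of 6 between lines, so the libraries were not taken as paired. With the replicate block 1 member, CG18135, was called in the wild-type course. With 5 neighbours on each side in place of 2, 24.8% were called in the direction of higher members and 14.8% in that of lower members. The planned search of promoters for E-boxes was not run, and no sequences are used here. With 2 libraries a time, small daily changes are hard to detect, and members that are rare in 1 line rest on few counts.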
